A study of Mus musculus with 2 samples.

Results

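The solute carrier (Slc) genes were examined in the mouse line MS1, which derives from endothelial cells of pancreatic islets and is immortalised, after infection with a lentivirus that carries a short hairpin RNA. The members are the listed genes whose mouse Ensembl identifier has a protein-coding symbol that starts with Slc and a digit, which gave 181 of the 11405 genes listed in both tables. The Slco genes are not included. RNA of MS1 cells labelled as Pspc1 knockdown, whose hairpin is aimed at Pspc1, was compared with RNA of MS1 cells labelled as wt, whose hairpin is aimed at LacZ, a bacterial gene that mice lack. Each group held 1 library of poly-A RNA. Both groups share the cell line and the viral infection, and the labels give neither the number of hairpins nor whether the cells were a clone or a pool. The study compared the RNA profiles of the 2 lines.

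Solute carriers are membrane proteins that move nutrients, metabolites and ions, either down their gradient or coupled to another ion. Families are numbered by sequence similarity, so a family number often, but not always, tells the substrate. In endothelium the carriers feed the cell itself and pass glucose, amino acids and vitamins from blood to tissue, and endothelial cells take most of their energy from glycolysis. The Slc25 family sits mainly in the inner mitochondrial membrane. It exchanges nucleotides, phosphate, amino acids and organic acids with the cytosol.

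Values are the authors' scaled gene counts as deposited, and no value has a replicate error. Behind them lay 53518762 reads on the listed genes in the knockdown library and 64009912 in the control library. Pspc1 itself, which encodes an RNA-binding protein of nuclear paraspeckles, had 3.78 in the knockdown library and 28.8 in the control library, 7.62-fold lower, on 192 and 1880 reads. Of 13 endothelial markers 11 were listed, and their summed values were 7007 in the knockdown library and 6765 in the control library. Of the 10 with a mean of at least 20, 4 had a log2 ratio above 0 and 6 below, with a median of -0.03. Among these 10, Kdr (77.3 in the knockdown library, 148.9 in the control library) and Cdh5 (511.2 and 859.4, in the same order) were lower by 1.5-fold or more, and Esam (566.1 and 376.5) was higher. Tek, with a mean of 10.4, had 7.13 in the knockdown library and 13.6 in the control library. Of 6 leukocyte and 7 islet endocrine markers none was listed, and of 6 fibroblast and 6 smooth muscle or pericyte markers only Pdgfra (0.985 in the knockdown library, 1.15 in the control library) and Pdgfrb (2.38 and 0.720, in the same order). The epithelial keratins Krt19 (115.2 in the knockdown library, 23.8 in the control library) and Krt18 (36.9 and 23.9, in the same order) were higher in the knockdown library, while the other 3 of 5 epithelial markers were not listed. The part of these markers in the carrier values was not tested.

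Most carrier genes differed little between the libraries. With the deposited scaling and a mean of at least 20, those that differed by at least 1.5-fold were more often higher than lower. The reverse held with no minimum mean, with 13 of all 181 members higher and 19 lower, against 4.81% and 12.8% of all genes. With the log2 ratio taken after adding 0.5 to both values, 1 of the 60 members whose mean value reached 50 was 2-fold different or more. This was Slc19a2, which was higher. Of all 3629 such genes 1.49% passed, 0.551% higher and 0.937% lower. Among the 98 members with a mean of at least 20, 9, or 9.18%, were higher in the knockdown library by 1.5-fold or more, against 3.82% of all 5892 such genes. Another 5 of the 98, or 5.10%, were at least 1.5-fold lower, against 5.52% of all such genes. Altogether 14 members, 14.3%, passed this line, against a background of 9.33%. The median log2 ratio of the 98 members was 0.13 and that of all genes 0.04, and 64 members lay above 0 and 34 below, 65.3% above, against 55.0% of all 5892 genes. No p-value is given, because 1 library a group leaves no spread between cultures, and in bulk RNA fewer cells of a type and less RNA per cell cannot be told apart.

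At a mean of at least 20, that balance depended on the scaling, among the members and over all genes alike. Of the members past 1.5-fold, 64.3% were higher with the deposited values, against 40.9% of all genes past it. Scaling both libraries to the same total of the listed genes shifted the ratios by a median of -0.10 on the log2 scale. It left 6 members higher and 7 lower, 46.2% higher, while over all genes 139 were then higher and 468 lower, 22.9% higher. Under scaling by trimmed M values or by median of ratios, 9 members were higher and 4 lower, 69.2% higher. Over all genes past the line, 49.3% and 51.2% were higher, in the same order. Members with the same call under every scaling, with a pseudocount of 5 and after a correction for exonic length and GC were 6 of the 9 higher and 3 of the 5 lower.

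**Figure D1:**
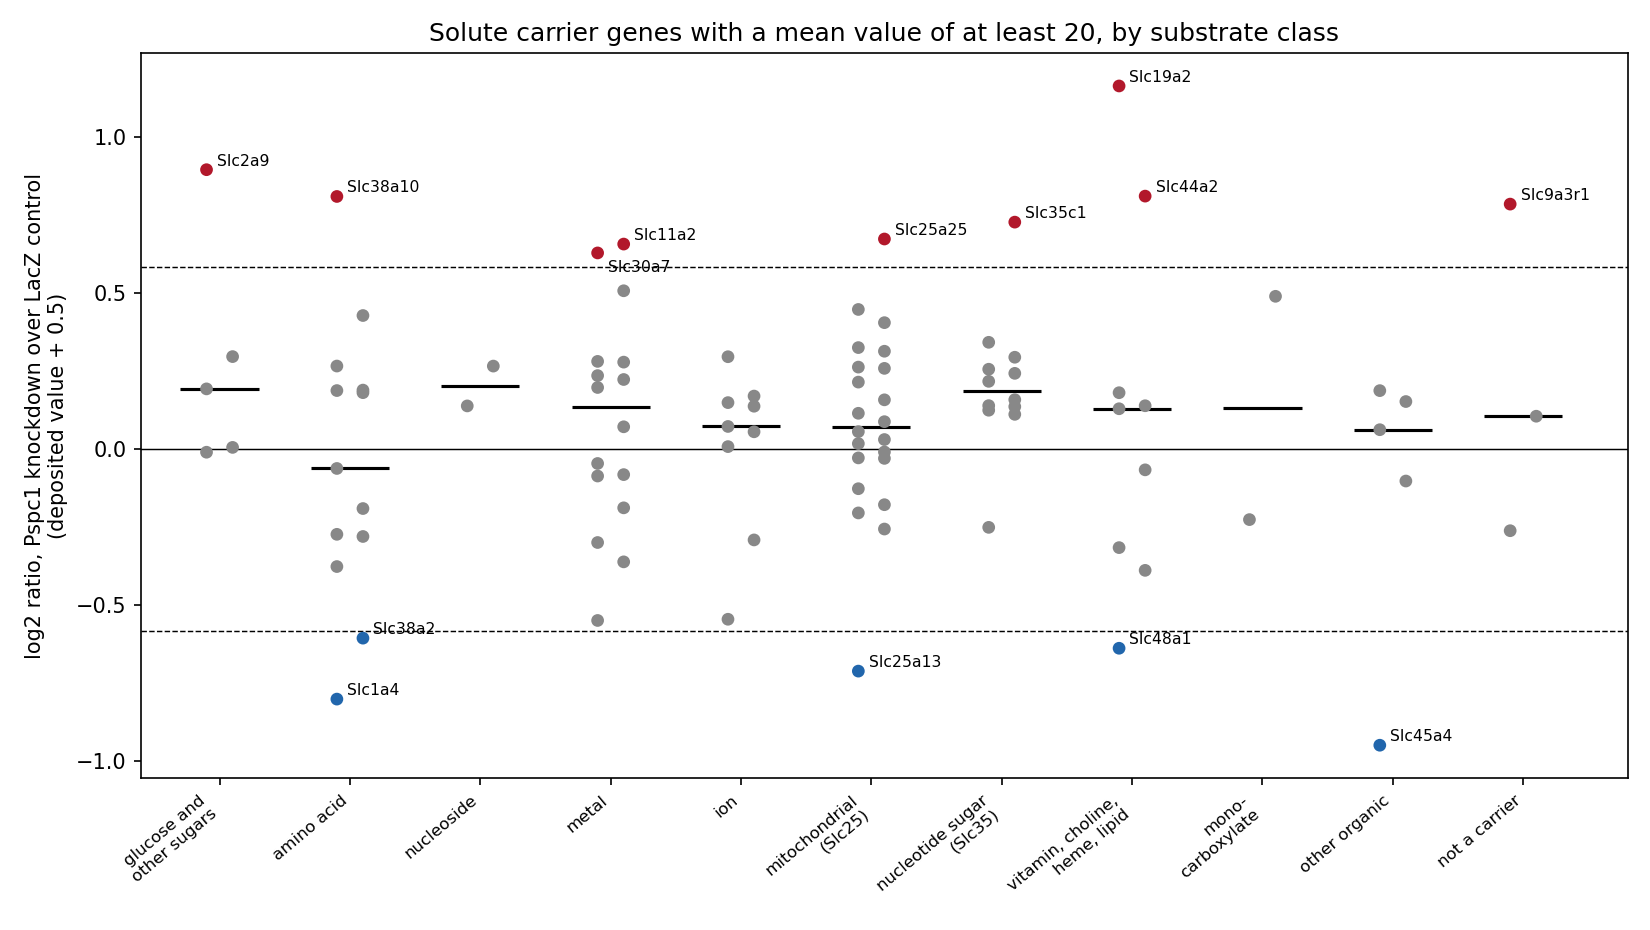
Log2 ratio of Pspc1 knockdown over LacZ control (y axis) for the 98 solute carrier genes whose mean value reached 20, by substrate class (x axis). Each point is a gene, black bars are class medians, dashed lines mark 1.5-fold, and the 9 higher (red) and 5 lower (blue) members are spread over 8 of the 11 classes with no class holding more than 3.

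Vitamin, choline, heme and fatty acid carriers held the largest difference of all 98 members. Slc19a2 (ENSMUSG00000040918, mm10 chromosome 1, 164249046 to 164265385, plus strand), the thiamine transporter THTR1, had 89.1 in the knockdown library and 39.5 in the control library. It was 2.26-fold higher in the knockdown library, a log2 ratio of 1.16. The 95% interval from counting error alone, computed on reads with no pseudocount, ran from 1.10 to 1.25. Its family neighbour Slc19a1, the reduced folate carrier, had 57.3 in the knockdown library and 60.1 in the control library. It did not pass 1.5-fold.

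Slc44a2 (ENSMUSG00000057193, mm10 chromosome 9, 21320698 to 21355028, plus strand), a choline-transporter-like protein that also carries a blood group antigen of neutrophils in humans, had 698.6 in the knockdown library and 397.8 in the control library. It was 1.76-fold higher, a log2 ratio of 0.81, on 35463 and 25959 reads. The related choline transporter Slc44a1 lay on the other side, with 3.49 in the knockdown library and 8.93 in the control library, though with a mean of 6.21 it entered neither rule. Per kb of exon, Slc44a2 stood 160.4 times above Slc44a1 in the knockdown library and 35.6 times above it in the control library. These ratios rest on a low divisor, with Slc44a1 at 0.502 per kb in the knockdown library and 1.29 in the control library. Slc48a1 (ENSMUSG00000081534), which moves heme out of lysosomes and endosomes, had 74.8 in the knockdown library and 116.8 in the control library, 1.56-fold lower, and 29 bp of its exons overlap Hdac7. The remaining members of mean 20 or more did not pass 1.5-fold. These were Slc23a2, a vitamin C transporter (79.1 in the knockdown library, 98.6 in the control library), Slc27a1 (29.3 and 38.5) and Slc27a4 (105.4 and 92.9), which are fatty acid transport proteins, Slc52a2, a riboflavin transporter (49.7 and 45.1), and Slc5a6, a multivitamin transporter (23.0 and 21.01), all in the same order.

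Sequences upstream of the start are shown for the 2 higher members just described and for 2 lower members, Slc1a4 and Slc25a13, described further on: Slc19a2 had the largest fold of the 98 members and Slc44a2 the highest value of those past 1.5-fold, and the lower ones are exchangers whose paralog differed little. They are RefSeq promoters on GRCm38.p6, the 250 bases before the start, written 5′ to 3′ on the gene's strand. They lie at chr1:164248796-164249045 (plus) for Slc19a2, chr9:21320469-21320718 (plus) for the upstream of the 2 starts of Slc44a2, chr11:20332714-20332963 (minus) for Slc1a4 and chr6:6217174-6217423 (minus) for Slc25a13. Capitals mark a match on either strand to one of 7 motifs, and overlapping matches run together. Searched were TATAAA for the core promoter box of that kind, CCAAT for the box bound by the factor NF-Y, GGGCGG for the GC box, CACGTG for the E-box, TGATGNAA for the amino acid response element CARE, TGACNNNGC for the core of the antioxidant response element and TGACTCA for the AP-1 site.
Slc19a2: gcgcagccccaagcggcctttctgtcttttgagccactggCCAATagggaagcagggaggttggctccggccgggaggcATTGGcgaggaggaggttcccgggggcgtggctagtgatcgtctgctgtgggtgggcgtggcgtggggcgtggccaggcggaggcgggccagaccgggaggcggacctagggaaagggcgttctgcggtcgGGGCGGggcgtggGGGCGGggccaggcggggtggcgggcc
Slc44a2: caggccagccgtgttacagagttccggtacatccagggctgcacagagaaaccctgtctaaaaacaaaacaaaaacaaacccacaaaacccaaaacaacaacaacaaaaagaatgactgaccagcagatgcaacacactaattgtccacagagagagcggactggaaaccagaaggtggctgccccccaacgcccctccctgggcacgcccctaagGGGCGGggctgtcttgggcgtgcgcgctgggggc
Slc1a4: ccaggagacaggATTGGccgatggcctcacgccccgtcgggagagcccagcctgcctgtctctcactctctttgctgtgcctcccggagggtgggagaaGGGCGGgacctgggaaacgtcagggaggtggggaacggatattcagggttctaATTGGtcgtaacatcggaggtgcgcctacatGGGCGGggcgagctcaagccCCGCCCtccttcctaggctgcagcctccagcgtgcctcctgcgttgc
Slc25a13: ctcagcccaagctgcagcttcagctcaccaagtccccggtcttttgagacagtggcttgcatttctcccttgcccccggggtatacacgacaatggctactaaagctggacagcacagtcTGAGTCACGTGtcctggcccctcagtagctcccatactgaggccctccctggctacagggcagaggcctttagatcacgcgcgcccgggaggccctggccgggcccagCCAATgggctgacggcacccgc

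The Slc19a2 window was 73.2% GC and held 2 CCAAT boxes, 1 on each strand, and 2 GC boxes. That of Slc44a2 was 55.6% GC and held 1 GC box. Slc1a4 had 2 CCAAT and 3 GC boxes, and in Slc25a13 an AP-1 match and an E-box overlapped, with a CCAAT box nearer the start. A GC box was found in 7 of 12 windows of the higher members, in 2 of 3 windows of the lower members, in 68.9% of the 106 windows of members with a mean of at least 20, and in 32.7% of all 32851 windows. CCAAT was found in 7 of the 12, in 2 of the 3, in 31.1% and in 33.8%, in the same order. An E-box was found in 12.3% of the windows of members with a mean of at least 20 and in 6.02% of all windows, TATAAA in 2.83% and 12.4%, the antioxidant core in 16.0% and 10.2%, CARE in 0.943% and 3.45%, and the AP-1 site in 3.77% and 4.46%. The windows of members with a mean of at least 20 were also richer in GC, with a median of 61.6% against 52.4% for all windows. All windows belong to 27025 genes, more than are listed in these data, and were taken with no minimum mean. Whether the member windows differ from those of other genes with a mean of at least 20 was not tested. The 12 windows belong to 8 genes, so they are not independent, and a match is a string of letters, not a bound site.

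**Figure D2:**
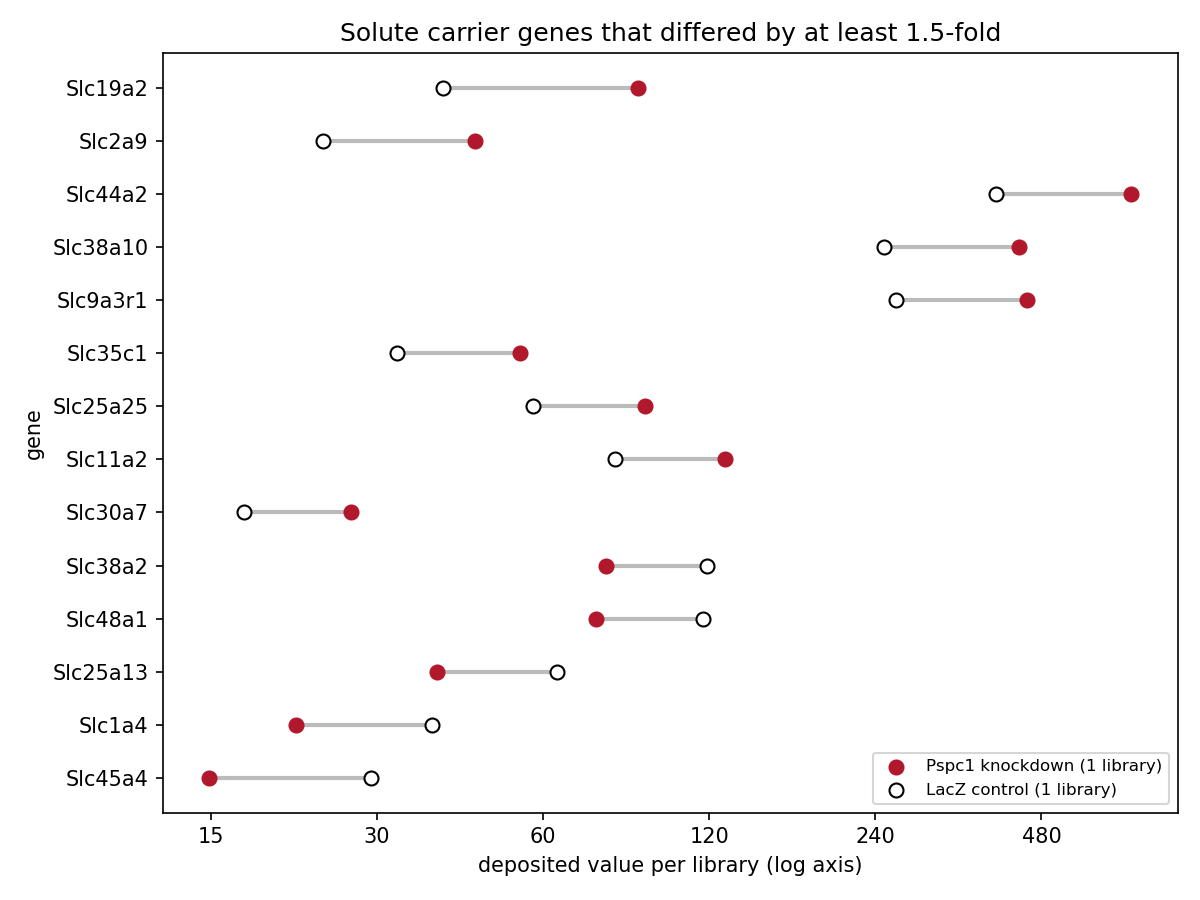
Deposited value (x axis, log scale) of the 14 solute carrier genes past 1.5-fold (y axis), with the Pspc1 knockdown library as red points and the LacZ control library as open points. The highest is Slc44a2, with 698.6 in the knockdown library and 397.8 in the control library, and the lowest is Slc45a4, with 14.9 and 29.2 in the same order.

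Glucose and sugar carriers held 1 higher member, and their median lay above 0 under every scaling. Of 10 listed members 5 had a mean of at least 20, with a median log2 ratio of 0.19. Among the 5, 1 was higher by 1.5-fold and none lower, against 3.82% and 5.52% of all such genes. Slc2a1, the glucose transporter GLUT1 that supplies basal uptake in endothelium, had 660.8 in the knockdown library and 537.9 in the control library, a log2 ratio of 0.30. Per kb of exon it stood at 188.5 in the knockdown library and 153.4 in the control library, 13.1 and 14.5 times the sum of the other 3 listed Slc2 genes. The member past the line was Slc2a9 (ENSMUSG00000005107, mm10 chromosome 5, 38349273 to 38503143, minus strand), which in humans is chiefly a urate carrier. It had 45.1 in the knockdown library and 23.98 in the control library, 1.88-fold higher, and its counting interval ran from 0.817 to 1.004 log2.

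The other 3 sugar carriers with a mean of at least 20 lay closer to equality than Slc2a9. Slc50a1, a sugar efflux carrier of the SWEET type, had 64.0 in the knockdown library and 55.9 in the control library. Slc37a4, which takes glucose 6-phosphate into the endoplasmic reticulum, had 20.2 and 20.1, and Slc37a3 had 31.9 and 32.1, in the same order. Slc5a3, an inositol carrier whose exons overlap Mrps6, had 0.492 in the knockdown library and 1.394 in the control library, 2.83-fold lower but too low for either rule. Downstream of uptake, none of the 14 glycolysis genes with a mean of at least 20 passed 1.5-fold on the log2 scale with the pseudocount, and their median log2 ratio was 0.13. Pfkfb3, which makes an activator of phosphofructokinase, lay at the line, with 26.04 in the knockdown library and 39.1 in the control library, a log2 ratio of -0.58 that was past the line at -0.68 with scaling by total reads. Hk1 had 276.7 in the knockdown library and 292.9 in the control library, and Ldha 1550 and 1553, in the same order. Pfkfb3, Hk1 and Ldha are among the 5 of these 14 genes below 0, while 9 lay above it, up to Pfkp at a log2 ratio of 0.43.

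Amino acid carriers went both ways. Of 22 listed members 13 had a mean of at least 20. Among the 13, 1 was higher and 2 were lower by 1.5-fold, against 3.82% and 5.52% of all such genes. The median log2 ratio of the 13 was -0.06 and turned to 0.09 after the length and GC correction. Slc38a10 (ENSMUSG00000061306, mm10 chromosome 11, 120103960 to 120151346, minus strand), of the family that carries glutamine and other neutral amino acids, had 436.6 in the knockdown library and 248.7 in the control library. That was 1.76-fold higher, a log2 ratio of 0.81 with a counting interval of 0.78 to 0.84. Slc38a2 (ENSMUSG00000022462), the system A carrier SNAT2 that cells induce when amino acids run short, had 78.0 in the knockdown library and 119.0 in the control library, 1.53-fold lower. Its log2 ratio of -0.61 was -0.26 after the correction for length and GC, and it missed the line in 4 of 5 alternatives, the most of the 14. Its neighbour Slc38a1, 44478 bp away on chromosome 15, had 85.3 in the knockdown library and 89.0 in the control library.

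Both neutral exchangers of the Slc1 family were expressed and differed in direction. Slc1a4 (ASCT1; ENSMUSG00000020142, mm10 chromosome 11, 20302180 to 20332713, minus strand) had 21.4 in the knockdown library and 37.7 in the control library, 1.76-fold lower, with a counting interval of -0.92 to -0.71 log2. Slc1a5 (ASCT2), the main glutamine exchanger of many growing cells, had 188.9 in the knockdown library and 166.5 in the control library and did not pass the line. The ratio of Slc1a5 to Slc1a4 per kb of exon was 8.29 in the knockdown library and 4.15 in the control library.

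Carriers that form heterodimers with CD98 were closer to equality. Slc3a2, the CD98 heavy chain, had 406.1 in the knockdown library and 301.6 in the control library, a log2 ratio of 0.43. Among its light chains, Slc7a5 (LAT1) had 153.6 in the knockdown library and 134.7 in the control library and Slc7a6 had 48.7 and 55.7, in the same order. Slc7a7, at 15.9 and 13.0 in that order, was too low for the rules. The arginine carrier Slc7a1 (CAT1), which supplies endothelial nitric oxide synthase, had 294.0 in the knockdown library and 355.4 in the control library. Slc7a11, the cystine light chain, is not among the listed genes and was not analysed here. Of the remaining members with a mean of at least 20, the log2 ratios lay between -0.38 for Slc16a10, an aromatic amino acid carrier, and 0.27 for Slc6a6, the taurine transporter. None of the 12 genes of the amino acid response with a mean of at least 20 passed 1.5-fold. Atf4, its transcription factor, had 550.5 in the knockdown library and 558.4 in the control library, and Asns had 71.4 and 74.5, in the same order. Under the minimum, Nupr1 of that list had 14.8 in the knockdown library and 7.06 in the control library, 2.09-fold higher. Cth, Ddit3 and Pycr1, also under the minimum, differed by less than 1.5-fold.

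Nucleoside carriers were few and close to equality. Slc29a1, the equilibrative nucleoside transporter ENT1 that clears adenosine, had 129.8 in the knockdown library and 107.8 in the control library. Slc43a3, a nucleobase carrier, had 120.6 in the knockdown library and 109.5 in the control library. Slc29a2 had 16.5 in the knockdown library and 13.1 in the control library, and the lysosomal Slc29a3 had 12.8 and 16.8, in the same order. None of these 4 members passed a rule, and per kb Slc29a1 stood 4.23 times above Slc29a2 and Slc29a3 together in the knockdown library and 3.73 times in the control library.

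Metal carriers included 2 higher and no lower member among 16 with a mean of at least 20, against 3.82% and 5.52% of all such genes. The median log2 ratio of the 16 was 0.13, and 0.03 with scaling by total reads. Of the other 7 of 23 listed, none was higher by 1.5-fold and 2 were lower, against 5.88% and 20.5% of all genes under 20. These were Slc30a4 and Slc39a10, the latter with 3.21 in the knockdown library and 5.46 in the control library. Slc11a2 (ENSMUSG00000023030, mm10 chromosome 15, 100387898 to 100425072, minus strand), the ferrous iron transporter DMT1, had 128.3 in the knockdown library and 81.1 in the control library. That was 1.58-fold higher, with a counting interval of 0.61 to 0.71 log2, and its log2 ratio of 0.66 was 0.55 with scaling by total reads, short of the line. Slc30a7 (ENSMUSG00000054414), which loads zinc into the Golgi, had 26.9 in the knockdown library and 17.2 in the control library, 1.56-fold higher. Its log2 ratio of 0.63 was 0.53 with scaling by total reads and 0.52 with a pseudocount of 5, both short of the line, and 0.97 after the length and GC correction.

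Zinc importers of the Slc39 (ZIP) family split by member. Slc39a1 (ZIP1) had 473.0 in the knockdown library and 389.1 in the control library. Slc39a4 (ZIP4), with 233.9 in the knockdown library and 164.4 in the control library, lay just under the line at 1.42-fold. Slc39a6 (ZIP6) had 18.7 in the knockdown library and 27.6 in the control library, just under the line on the other side at 1.48-fold lower. Slc39a11 (ZIP11) had 119.0 in the knockdown library and 135.7 in the control library. In all, 5 Slc39 members with a mean of at least 20 lay above 0 and 4 below. Summed per kb of exon, the 11 listed importers came to 374.0 in the knockdown library and 316.6 in the control library, and the 6 listed exporters of the Slc30 (ZnT) family to 18.6 and 18.3, in the same order. Slc39a1 also has a pseudogene copy in the annotation, with which reads could have been split. Among exporters below the minimum, Slc30a4 had 1.63 in the knockdown library and 4.47 in the control library, and Slc30a1, the plasma membrane exporter, 1.67 and 1.35, in the same order.

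Carriers of copper, magnesium and iron other than Slc11a2 that had a mean of at least 20 did not pass the line. Slc31a1, the copper importer CTR1, had 30.7 in the knockdown library and 29.2 in the control library, and the magnesium carrier Slc41a1 had 60.6 and 64.2, in the same order. Slc39a14, which imports iron as well as zinc, had 43.4 in the knockdown library and 46.1 in the control library. The iron exporter Slc40a1 is not among the listed genes and was not analysed here. Of the 6 other metal handling genes with a mean of at least 20, only Hmox1, which breaks down heme, passed 1.5-fold, with 241.4 in the knockdown library and 432.2 in the control library. Tfrc, the transferrin receptor, had 6.24 in the knockdown library and 12.9 in the control library, and the copper pump gene Atp7a had 1.44 and 3.95, in the same order, both under the minimum and 2.07-fold and 2.75-fold lower. The ferritin genes Fth1 (2014 in the knockdown library, 1554 in the control library) and Ftl1 (2651 and 2116, in the same order) did not pass the line.

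**Figure D3:**
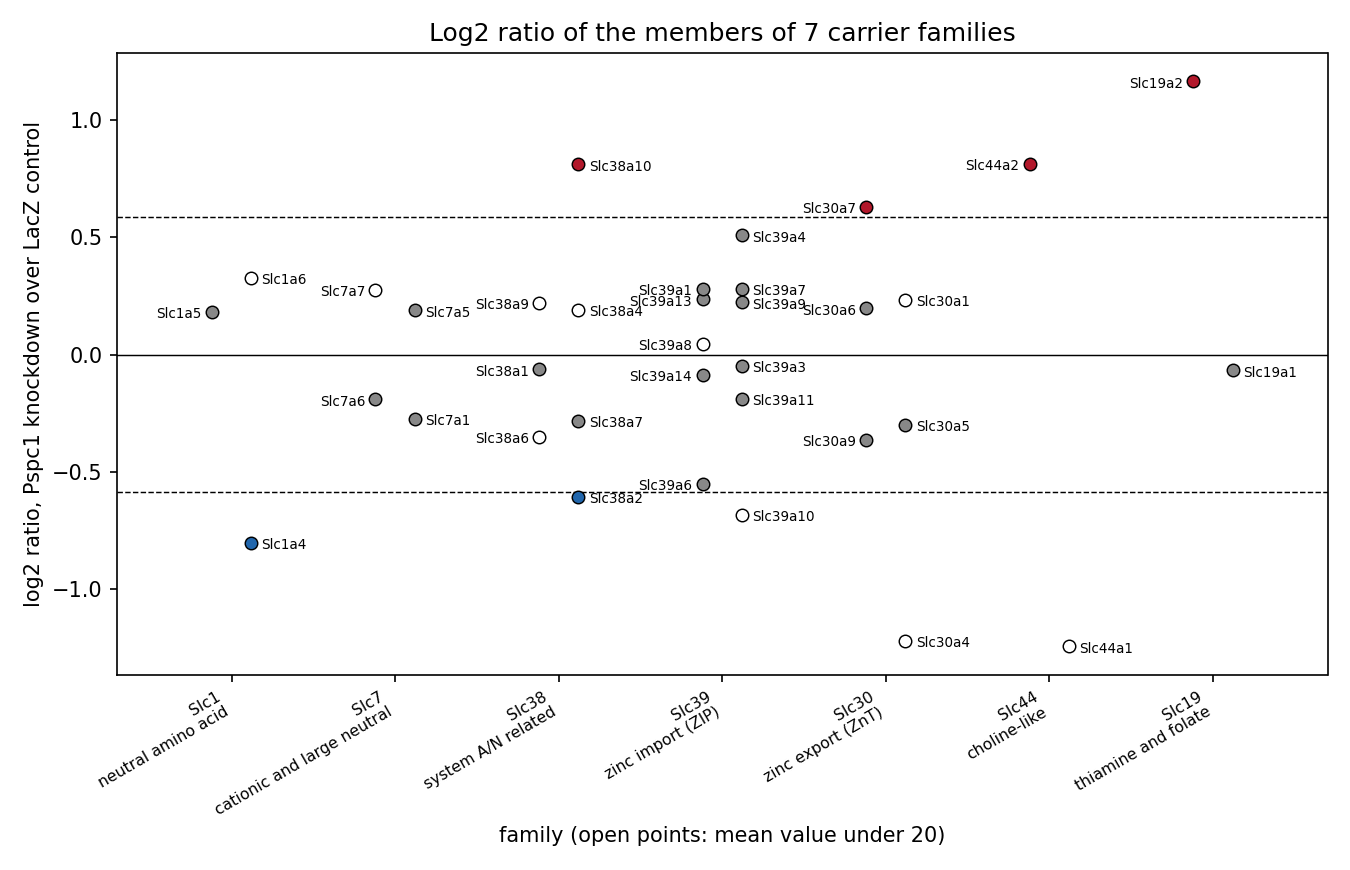
Log2 ratio of Pspc1 knockdown over LacZ control (y axis) for the listed members of 7 solute carrier families (x axis), with filled points where the mean value reached 20 and open points below it, and dashed lines at 1.5-fold. Members of the Slc1, Slc38, Slc39, Slc30 and Slc44 families lie far apart on both sides of 0, such as Slc44a2 at 0.81 and Slc44a1, below the minimum, at -1.24.

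Carriers of inorganic ions with a mean of at least 20 held no member past 1.5-fold, which 9.33% of all such genes passed. Of 24 listed members 9 had a mean of at least 20, with a median log2 ratio of 0.07 that was -0.03 with scaling by total reads. The potassium-chloride cotransporter Slc12a4 (KCC1) had 234.9 in the knockdown library and 208.7 in the control library. The anion exchanger Slc4a2, 1141 bp of whose exons overlap Fastk, had 190.7 and 172.0, in the same order. Slc8b1, the mitochondrial sodium-calcium exchanger, had 50.5 in the knockdown library and 45.8 in the control library. Slc9a8, a sodium-proton exchanger of the Golgi, came nearest the line, with 49.9 in the knockdown library and 73.1 in the control library, 1.46-fold lower. The phosphate importers Slc20a1 (68.6 in the knockdown library, 84.1 in the control library) and Slc20a2 (42.1 and 34.2, in the same order) lay on opposite sides of equality.

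Of the 15 ion carriers under the minimum none was higher by 1.5-fold and 4 were lower, against 5.88% and 20.5% of all genes under 20. Slc12a2 (NKCC1), which loads the cell with chloride, had 11.98 in the knockdown library and 20.01 in the control library. The bicarbonate cotransporter Slc4a7 had 1.06 in the knockdown library and 2.56 in the control library. Among 7 pump and regulator genes with a mean of at least 20, 1 was higher and 1 lower by 1.5-fold. Atp1b1, a beta subunit of the sodium pump, had 72.8 in the knockdown library and 26.4 in the control library. Wnk1, the kinase that sets the activity of Slc12 cotransporters, had 27.7 in the knockdown library and 57.4 in the control library.

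Mitochondrial carriers were the most abundant class per kb, and most lay near equality. Of 37 listed Slc25 members 22 had a mean of at least 20. Among the 22, 1 was higher and 1 lower by 1.5-fold, against 3.82% and 5.52% of all such genes. The median log2 ratio of the 22 was 0.07, and -0.03 with scaling by total reads. Per kb of exon the Slc25 members took 34.3% of the summed level of all Slc genes in the knockdown library and 36.5% in the control library. The ADP/ATP carrier Slc25a5 (ANT2) had 461.4 per kb in the knockdown library and 443.8 in the control library, and Slc25a4 (ANT1) 159.1 and 162.3, in the same order. Slc25a5 has a pseudogene copy in the annotation, so some of its reads are uncertain. The phosphate carrier Slc25a3 had a value of 639.4 in the knockdown library and 534.2 in the control library, and the glutathione importer Slc25a39 had 378.8 and 339.5, in the same order.

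Among them 2 calcium-regulated carriers passed the line. Slc25a25 (ENSMUSG00000026819, mm10 chromosome 2, 32414487 to 32451445, minus strand), a calcium-dependent carrier of ATP-Mg and phosphate, had 91.9 in the knockdown library and 57.4 in the control library, 1.60-fold higher. It has 3 annotated starts in RefSeq, 379 bp of its exons overlap Naif1, and its log2 ratio of 0.67 was 0.57 with scaling by total reads, short of the line. Slc25a24, a carrier of the same kind, had 36.9 in the knockdown library and 44.1 in the control library. Slc25a13 (citrin; ENSMUSG00000015112, mm10 chromosome 6, 6041218 to 6217173, minus strand), an aspartate-glutamate exchanger of the malate-aspartate shuttle, had 38.6 in the knockdown library and 63.6 in the control library. It was 1.65-fold lower, with a counting interval of -0.80 to -0.64 log2, and short of the line at -0.52 after the length and GC correction. Its paralog Slc25a12 (aralar) had 70.5 in the knockdown library and 66.3 in the control library, so that the ratio of Slc25a12 to Slc25a13 per kb was 0.945 in the knockdown library and 0.540 in the control library. The shuttle's malate carrier Slc25a11 had 194.2 in the knockdown library and 219.8 in the control library.

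The other mitochondrial carriers with a mean of at least 20 stayed within 1.5-fold. The dicarboxylate carrier Slc25a10 had 100.6 in the knockdown library and 73.6 in the control library, and the acylcarnitine carrier Slc25a20 had 49.3 and 37.1, in the same order. The citrate carrier Slc25a1 had 108.0 in the knockdown library and 99.7 in the control library. Both mitoferrins, which import iron, were close to equality, Slc25a37 with 60.1 in the knockdown library and 60.5 in the control library and Slc25a28 with 75.2 and 64.7, in the same order. None of the 10 mitochondrial channel and import genes with a mean of at least 20 passed the line, and the porin gene Vdac1 had 450.5 in the knockdown library and 559.3 in the control library.

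**Figure D4:**
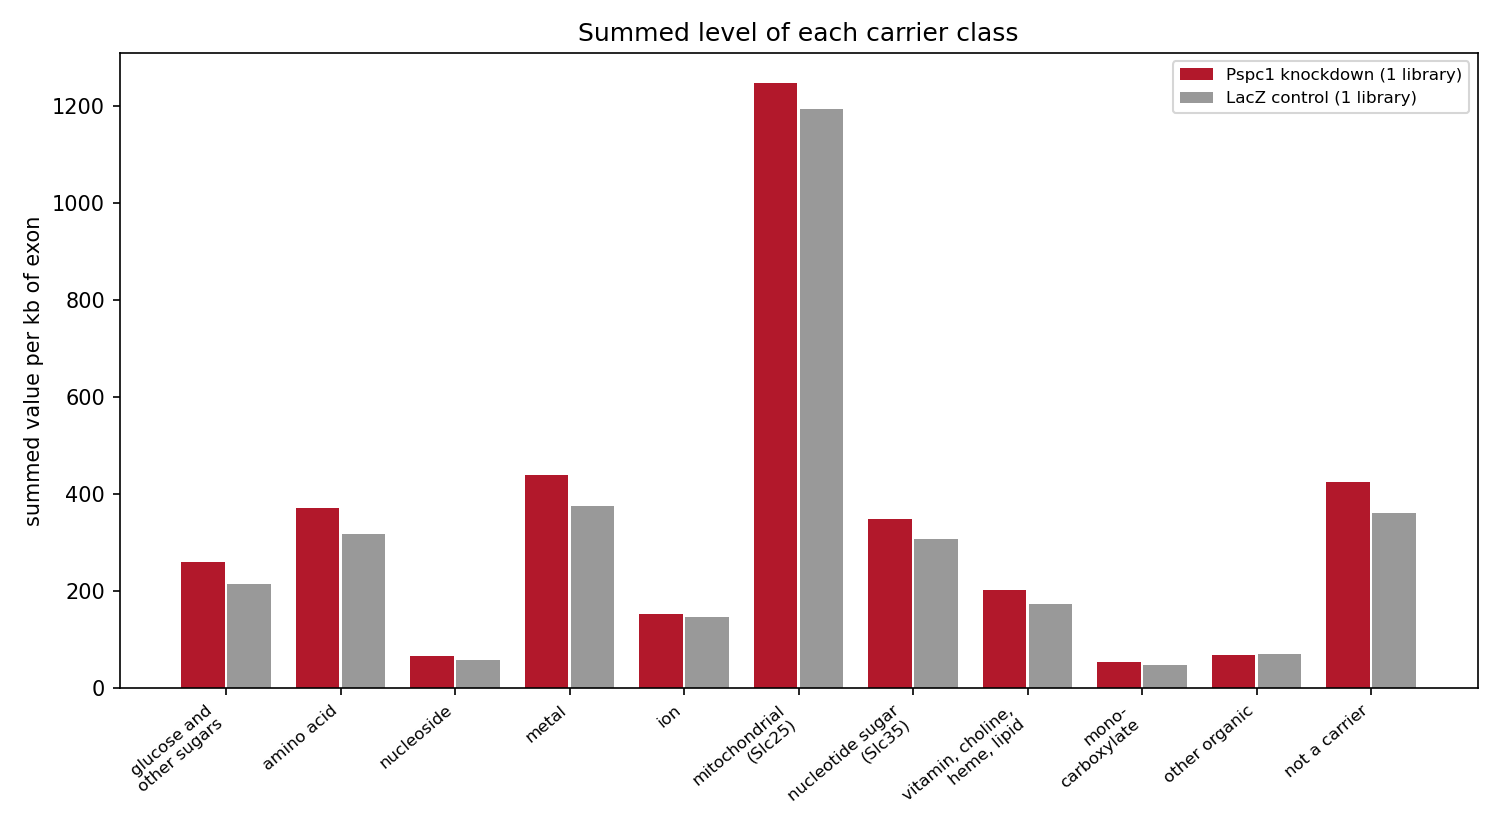
Summed value per kb of merged exon (y axis) of all listed members in each solute carrier class (x axis), with Pspc1 knockdown in red and LacZ control in grey, 1 library each. Mitochondrial carriers stand highest, at 1248 in the knockdown library and 1195 in the control library, and ion carriers reach 153.2 and 147.3 in the same order.

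Nucleotide sugar carriers of the Slc35 family feed glycosylation in the Golgi and endoplasmic reticulum. At a mean of at least 20 the family held 1 higher and no lower member past the line, against 3.82% and 5.52% of all such genes. It was taken whole as the nucleotide sugar class, so the counts describe the family and not the substrate of each member. Of 12 members with a mean of at least 20, of 22 listed, 11 had a log2 ratio above 0 and 1 below, where 55.0% of all 5892 genes lay above 0, and the median of 0.19 was 0.08 with scaling by total reads. Of the other 10 members, under the minimum, 6 lay above 0 and 4 below. The largest difference among them and in the family was that of Slc35a3, a carrier of UDP-N-acetylglucosamine, with 9.65 in the knockdown library and 18.01 in the control library, 1.87-fold lower. Slc35c1 (ENSMUSG00000049922, mm10 chromosome 2, 92452764 to 92460538, minus strand), the GDP-fucose transporter needed for fucosylated selectin ligands, had 54.4 in the knockdown library and 32.7 in the control library, 1.67-fold higher, with a counting interval of 0.65 to 0.82 log2. Slc35a2, the UDP-galactose transporter, had 54.2 in the knockdown library and 42.6 in the control library. The sulfate donor carrier Slc35b2 had 174.5 in the knockdown library and 160.1 in the control library. The highest per kb were Slc35b2, Slc35a4 (181.4 in the knockdown library, 167.9 in the control library) and Slc35e4 (148.4 and 124.2, in the same order). Slc35d1 was the member below 0, with 27.5 in the knockdown library and 32.9 in the control library.

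Monocarboxylate carriers were represented by few genes. Slc16a1 (MCT1), which moves lactate and pyruvate, had 84.2 in the knockdown library and 98.5 in the control library. Slc16a3 (MCT4), the exporter of strongly glycolytic cells, had 4.75 in the knockdown library and 4.17 in the control library, and per kb Slc16a1 stood 21.3 times above it in the knockdown library and 28.4 times in the control library. Slc16a13 had 81.9 in the knockdown library and 58.2 in the control library, 1.41-fold higher and short of the line, while Slc16a11, 371 bp away in the opposite orientation, had 2.21 and 2.59, in the same order. Slc16a6 had 6.56 in the knockdown library and 9.68 in the control library, under the minimum. Bsg, the chaperone of Slc16a1 and Slc16a3, had 991.5 in the knockdown library and 820.6 in the control library.

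Other organic solute carriers held the member with the largest lower fold among the 98. Slc45a4 (ENSMUSG00000079020, mm10 chromosome 15, 73577424 to 73645762, minus strand) had 14.9 in the knockdown library and 29.2 in the control library, 1.96-fold lower, with a counting interval of -1.10 to -0.85 log2 on 756 and 1908 reads. The lysosomal peptide and histidine carrier Slc15a4 had 65.2 in the knockdown library and 57.2 in the control library, and the creatine transporter Slc6a8 had 39.3 and 42.2, in the same order. Slc10a3, whose exons overlap Ubl4a, had 52.4 in the knockdown library and 50.2 in the control library. Of 4 listed genes whose Slc symbol names a protein that is not a carrier, Slc9a3r1 (NHERF1; ENSMUSG00000020733), a PDZ scaffold that ties membrane proteins to ezrin, had 452.3 in the knockdown library and 262.1 in the control library, 1.73-fold higher. Its paralog Slc9a3r2 (NHERF2) had 472.8 in the knockdown library and 567.0 in the control library. Slc7a6os had 36.6 in the knockdown library and 34.0 in the control library. Ezr itself, ezrin, had 220.9 in the knockdown library and 196.0 in the control library. Of the 4 genes that are not carriers, 3 had a mean of at least 20. Leaving them out of the 98, 8 higher and 5 lower carriers remain past 1.5-fold, where 3.82% and 5.52% of all such genes were.

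The 83 members with a mean under 20 were less well measured, and more of them were lower than higher, as over all genes. At 1.5-fold 4 were higher and 14 lower, or 4.82% and 16.9%, against 5.88% higher and 20.5% lower over all 5513 genes with such low values. With no minimum mean, 13 of all 181 members were higher by 1.5-fold and 19 lower, against 4.81% and 12.8% of all genes. The median counting interval of the ratio was 0.48 log2 wide for the 83 and 0.14 for the 98 members with a mean of at least 20.

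Shorter and GC-rich genes tended to higher ratios in these libraries, and the carriers were set against that trend. Across the 98 members, the log2 ratio had a Spearman's rho of -0.13 against exonic length and of 0.25 against GC content. Across all 5892 genes of the same minimum these were -0.32 and 0.31. The difference between these values was not tested, genes are not independent replicates, and all points share the same 2 libraries. The 9 higher members had a median exonic length of 6354 bp, the 5 lower members 3926 bp and all 98 members 4445 bp. After the correction for length and GC the median log2 ratio of the 98 members was 0.09, against 0.04 for all genes.

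**Figure D5:**
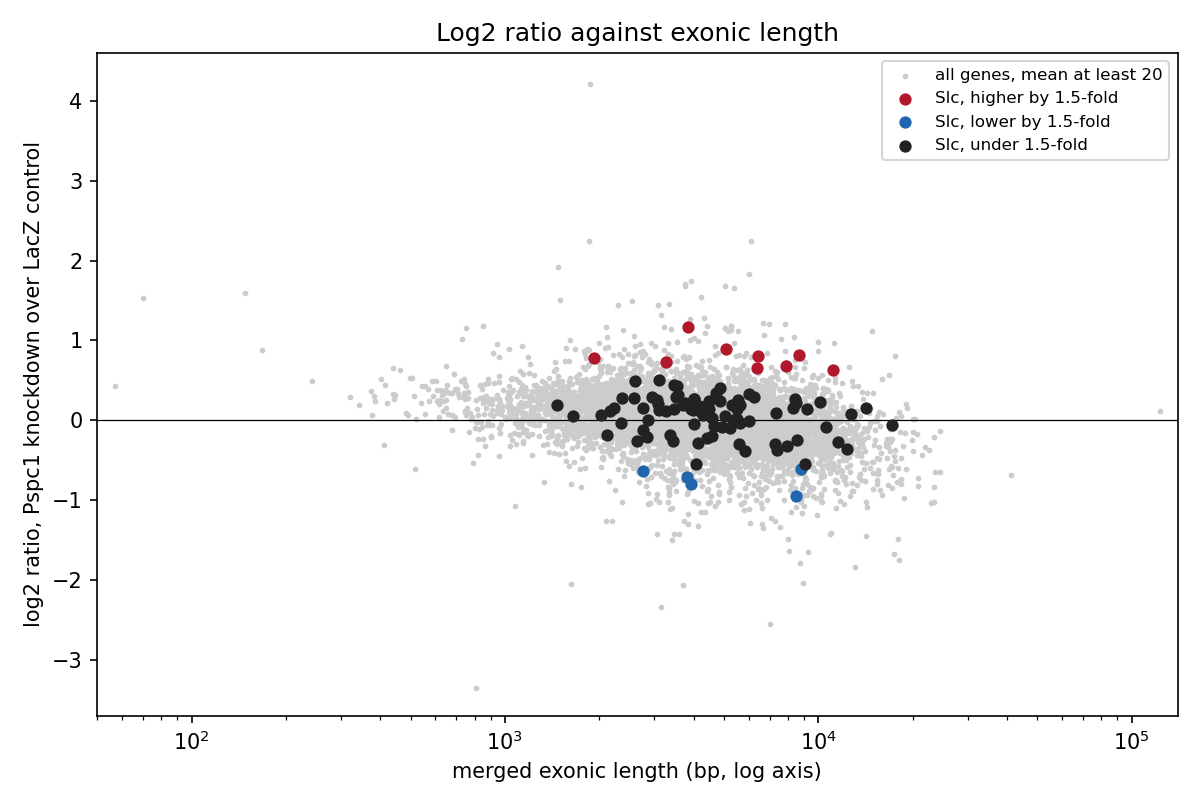
Log2 ratio of Pspc1 knockdown over LacZ control (y axis) against merged exonic length in bp (x axis, log scale) for every gene whose mean value reached 20 (grey) and for the solute carrier genes among them (red higher by 1.5-fold, blue lower, black neither). The 9 higher members span 1925 to 11116 bp and the 5 lower members 2751 to 8838 bp.

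Set beside the carriers, none of 15 genes of other transporter families with a mean of at least 20, from the Slco, Abc and Mfsd families and relatives, passed 1.5-fold in either direction with the deposited scaling, and their median log2 ratio was 0.01. Slco3a1, with 85.2 in the knockdown library and 57.1 in the control library, lay just short at a log2 ratio of 0.57 and passed under trimmed M values (0.62), median of ratios (0.62) and the length and GC correction (0.71). Abcg1, a sterol exporter with 59.4 in the knockdown library and 86.3 in the control library, and Abca2, with 41.2 and 58.4 in the same order, passed with scaling by total reads, at -0.64 and -0.60. Abcg2, with 48.3 in the knockdown library and 40.7 in the control library, passed after the length and GC correction, at 0.59. Whether the Slc genes and these families differ in their share past the line was not tested.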

How the data were processed

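Poly-A RNA of 2 libraries of the mouse line MS1 was sequenced, 1 per group. Tool names in the submitters' processing notes, which give no role or order, are DESeq 1.39.0, featureCounts 2.0.0, Trimmomatic 0.39 and HISAT2 2.1.0, and the build named is mm10. Not given in the sources used here are the annotation, the treatment of reads with several matches and any filter on low genes. Per the labels' protocols the library kit was NEBNext Ultra RNA, with no strand marking stated, so sense and antisense reads could not be told apart.

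What the authors deposited is a scaled signal per gene. Every value was a whole multiple of 1 step per library within 0.01 reads (100% of values), and dividing by the step (0.0197 in the knockdown library, 0.0153 in the control library) gave whole reads. The design allowed for raw or scaled values, and the scaled ones were used as deposited. The log2 ratio is log2((knockdown + 0.5)/(control + 0.5)), which understates changes of low genes. The 95% intervals are exact conditional binomial (Clopper-Pearson) intervals of the read ratio. They cover counting error only, since reads without molecular identifiers are not independent molecules, and they compare 2 libraries, not conditions. Genes with a mean of at least 50 and 2-fold, or at least 20 and 1.5-fold, were counted.

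GENCODE release M21, on the same build, gave symbols, positions and merged exonic lengths, and 371 protein-coding Slc genes are annotated there. Promoter sequences came from RefSeq (GRCm38.p6), which gave 142 of 181 members. Classes followed the family, or the substrate of the single gene where a family is mixed (Slc5, Slc6, Slc16 and Slc43), and genes that are not carriers formed a class of their own, to which Slc4a1ap was added after its symbol was seen. The length and GC correction subtracted the median of genes in the same of 25 bins. Members, lists and rules were chosen with earlier results of these data known. The text names Pspc1, members past either rule, the 3 of each class with the highest value per kb, 24 preset names and listed pathway genes past 1.5-fold. Of these, 1 preset name is not reported here. Other genes were named after their values were seen. Alternatives were 3 other scalings, a pseudocount of 5, the length and GC correction, 2 other minimums and RefSeq symbols. The steps were tested on simulated data. Python 3.11.15, numpy 2.4.6, pandas 2.3.3, scipy 1.17.1 and matplotlib 3.10.9 were used.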

Additional observations from a re-analysis of the deposited data

How the results depend on the processing

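Counts of members past 1.5-fold ranged from 6 to 13 higher and from 3 to 19 lower over 8 alternatives, which covered 60 to 181 members. The share of all genes ranged as well, from 2.39% to 4.81% higher and from 3.89% to 12.8% lower. Of members at least 2-fold different, Slc19a2 was the 1 higher under each alternative but the stricter minimum of 100, where its mean of 64.3 left 0. The number of 2-fold lower members was 0 except with no minimum mean (3 of 181, against 2.68% of all genes). Of 1.5-fold lower members 3 remained after the length and GC correction, 3 with a minimum of 50 and 19 with no minimum. The members covered were 98, 60 and 181, and 3.95%, 3.89% and 12.8% of all genes were lower, in the same order. With scaling by total reads the median log2 ratio was 0.033 for all members, -0.166 for amino acid, -0.030 for ion, 0.032 for metal, -0.032 for mitochondrial, 0.084 for nucleotide sugar, -0.041 for other organic and 0.028 for vitamin and lipid carriers. The ion median was 0.147 under scaling by trimmed M values and 0.155 under median-of-ratios scaling. After the length and GC correction the medians were 0.091 for amino acid, 0.061 for glucose, -0.079 for other organic and 0.050 for vitamin and lipid carriers. With no minimum they were 0.184 for amino acid, 0.016 for glucose, -0.068 for ion, 0.048 for metal, -0.057 for other organic and 0.031 for vitamin and lipid carriers, and with a minimum of 50 they were 0.059 for amino acid, 0.236 for metal and 0.057 for vitamin and lipid carriers. The signs of the amino acid, ion, mitochondrial and other organic medians therefore depend on the processing, while those of the glucose, metal, nucleotide sugar and vitamin medians were positive under each alternative that gave one. With a minimum of 50 the glucose and other organic classes held too few members for a median. The cause was not tested.

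With RefSeq symbols 184 genes qualified, and 10 of the 100 with a mean of at least 20 were higher by 1.5-fold, against 3.82% of all genes. The added one was Pqlc1, named Slc66a2 in RefSeq, with 55.6 in the knockdown library and 32.0 in the control library. No paired analysis was possible because each group holds 1 library. Depth limits the 83 members with a mean under 20, of which the fewest reads in a library were 25. Replication limits all results, since no difference has a replicate check.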
